A study of Homo sapiens with 12 samples.

Results

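The 10 genes described here encode the D and E cyclins, the cyclin-dependent kinases (CDKs) they bind and the CDK inhibitors p27 and p18, namely CCND1, CCND2, CCND3, CCNE1, CCNE2, CDK2, CDK4, CDK6, CDKN1B and CDKN2C. They were taken by symbol from a table of 26441 genes, with no threshold on the values, by a choice made when earlier results of these data were known. D cyclins couple growth factor signals to CDK4 and CDK6, which begin to phosphorylate RB and so release E2F transcription factors. E cyclins are themselves E2F targets and with CDK2 complete the phosphorylation of RB, which commits the cell to DNA synthesis. p27 (CDKN1B) binds cyclin and CDK complexes of both kinds, whereas p18 (CDKN2C) binds CDK4 and CDK6 and keeps the D cyclins off.

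RNA was sequenced from LNCaP-EnzR (labelled MDVr) and C4-2B-EnzR, 2 androgen receptor-positive prostate cancer lines grown until they resisted the androgen receptor antagonist enzalutamide. C4-2B is a bone-metastatic derivative of LNCaP, so the lines are related. LNCaP-EnzR was kept in 2 µM and C4-2B-EnzR in 10 µM enzalutamide, in the control and the knockdown (KD) groups alike. The sample titles also carry a P number that differs between the lines, which they do not explain. Cells were infected with lentivirus carrying the pLKO control vector (LKO) or a short hairpin RNA against the chemokine receptor CXCR7 (shCXCR7, gene symbol ACKR3) and harvested after 4 days, with 3 libraries per group and 12 in all. Which hairpin was used is not given in the labels, and nothing says that the 3 libraries of a group came from separate cultures, so the p-values measure the spread between these libraries. The comparisons between LKO and shCXCR7 ask what loss of the receptor does to the transcripts of the G1 cell cycle machinery in each line.

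Values are RPKM (reads per kilobase of transcript, scaled to the reads of the library), rescaled within each line so that the typical gene has the same level in its 6 libraries. Reads recovered from the steps between RPKM values gave 6382001 to 9834301 reads in genes per library. Replicate 3 of LNCaP-EnzR shCXCR7 was unlike the rest, with 27.4% of its 35667712 denominator reads in genes against 67.0% to 75.5% in the other 11, and with 1636 genes at 0 against 8719 to 9652. Genes at 0 in those 11 libraries had a median of 0.234 RPKM in it before rescaling, a level that matters most for CCND2 and CDK6 below. The marker sums that follow are on values rescaled over the 12 libraries together. Luminal prostate markers were present at 8 of 8 in every group and summed to between 530 and 761 RPKM, whereas the 4 basal keratin and p63 genes summed to between 0 and 4.81 RPKM, the 6 fibroblast genes to between 3.87 and 10.9, the 6 blood cell genes to between 3.29 and 8.92 and the 6 neuroendocrine genes to between 7.41 and 19.5. The luminal and neuroendocrine sums were lower after KD than in controls in both lines without overlap, the basal and blood sums differed without overlap in C4-2B-EnzR and the fibroblast sum in LNCaP-EnzR, and the part of any of these in the results was not tested. In bulk RNA, fewer cells in a cell cycle phase and less RNA per cell cannot be told apart.

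The KD itself was seen first at ACKR3. In LNCaP-EnzR its 3 control values were 121.9, 116.9 and 110.8 RPKM and its KD values 55.7, 50.5 and 42.1. In C4-2B-EnzR they were 84.0, 86.5 and 85.6 in controls and 22.3, 23.7 and 19.0 after KD. The transcript that remained amounted to 42.4% (LNCaP-EnzR) and 25.4% (C4-2B-EnzR) of the control mean, with no overlap between the groups (limma, adjusted p = 2.02e-05 and 1.21e-05). The fall was therefore not equally deep in the 2 lines, a difference of -0.73 ± 0.14 (SE) on the log2 scale (limma interaction, adjusted p = 0.00573).

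CXCR7 KD lowered the transcripts of CCND1, both E cyclins and CDK2 in both lines, whereas CDK4 rose in LNCaP-EnzR and neither CDKN1B nor CDKN2C passed the test in either line. Of the 10 members, 8 were expressed well enough to be tested, reaching 0.5 RPKM in 3 or more of a line's 6 libraries. In LNCaP-EnzR, 4 of the 8 fell (CCND1, CCNE1, CCNE2 and CDK2), against 21.3% of the 13073 genes tested, and CDK4 rose, against 19.4% (limma on log2(RPKM + 0.25), Benjamini-Hochberg adjusted p under 0.05). In C4-2B-EnzR, 5 of the 8 fell (the same 4 and CCND3), against 21.3% of 13347 genes, and 0 rose, against 21.2%. The members whose KD and control libraries did not overlap were those same 4 lower and 1 higher in LNCaP-EnzR, where 26.1% of tested genes were lower and 26.3% higher without overlap, and those same 5 lower in C4-2B-EnzR, where the shares were 27.1% and 27.5%. The 8 members had median log2 changes of -0.57 (LNCaP-EnzR) and -0.62 (C4-2B-EnzR), where the medians of all genes tested were 0.01 and 0.0. Without shCXCR7 replicate 3, the LNCaP-EnzR counts were again 4 lower and 1 higher.

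**Figure D1:**
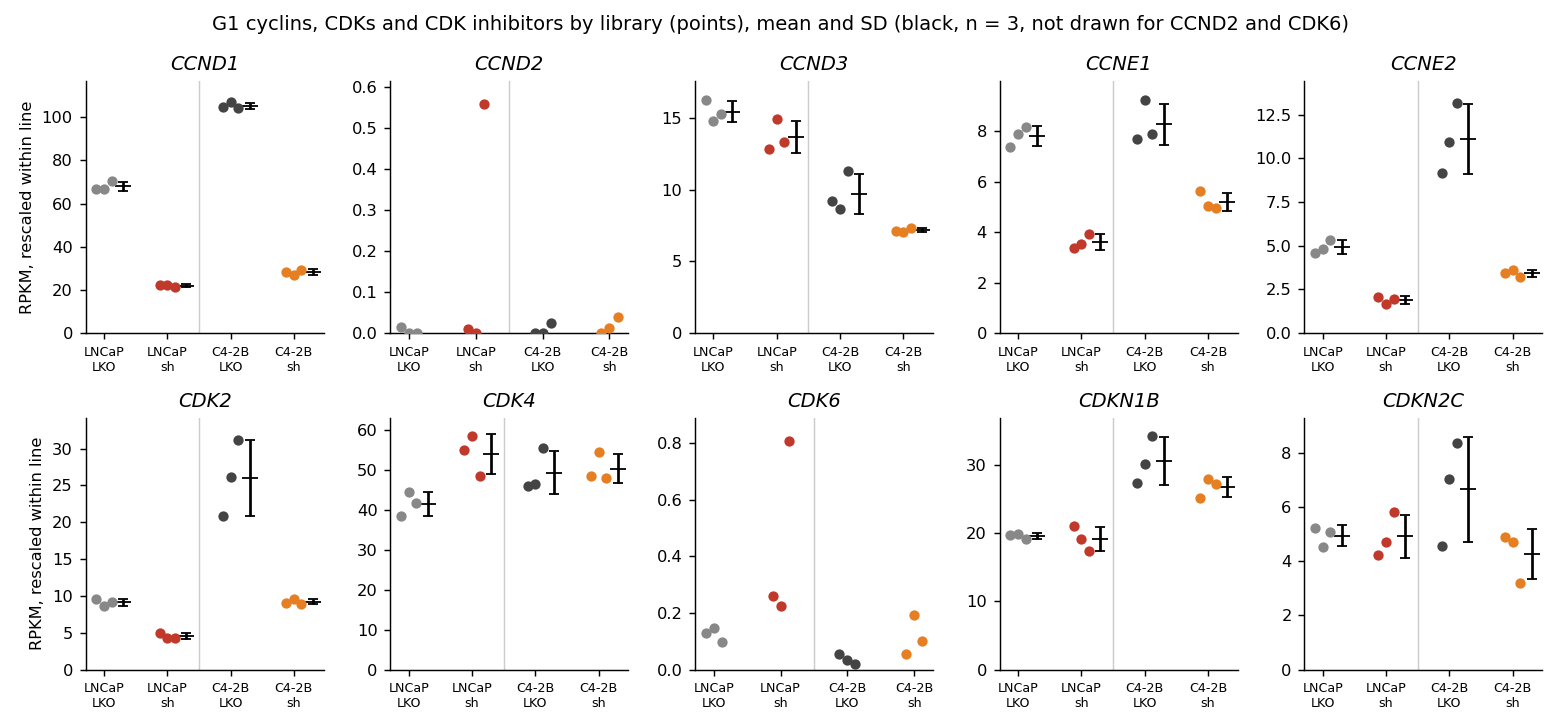
Rescaled RPKM (vertical axis, from 0, a scale for each gene) of each member in the 12 libraries, grouped along the horizontal axis by line and vector, with the mean and SD of 3 libraries in black (not drawn for CCND2 and CDK6). CCND1, CCNE1, CCNE2 and CDK2 drop after KD in both lines with no overlap, and the highest points for CCND2 and CDK6 come from LNCaP-EnzR shCXCR7 replicate 3. In shCXCR7 replicates 1 and 2 of that line CDK6 read 0.260 and 0.225 RPKM, against 0.097 to 0.147 in its controls.

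CCND1, which encodes cyclin D1 and was the most abundant member in both controls, had the largest fall of the 8 tested members in each line. In LNCaP-EnzR the control libraries read 66.8, 66.7 and 70.3 RPKM and the KD libraries 22.5, 22.1 and 21.3. In C4-2B-EnzR the controls read 104.9, 106.9 and 104.1 RPKM and the KD libraries 28.5, 26.97 and 29.4. Every KD library thus lay far below every control library of its line, and the SD within a group was at most 2.01 RPKM. The log2 change was -1.62 (95% CI -1.77 to -1.47, adjusted p = 5.89e-07) in LNCaP-EnzR and -1.89 (-2.03 to -1.74, adjusted p = 6.78e-06) in C4-2B-EnzR, which left 32.3% and 26.9% of the control mean. CCND1 lies on chromosome 11 (GRCh38, 69641156 to 69654474, plus strand) and behind its values stand 1323 to 5646 reads per library.

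The other D cyclins behaved differently. CCND3, the cyclin D3 gene, read 16.3, 14.8 and 15.3 RPKM in LNCaP-EnzR controls and 12.8, 14.9 and 13.3 after KD, so that the groups overlapped (log2 change -0.17, 95% CI -0.35 to 0.01, adjusted p = 0.111). In C4-2B-EnzR it read 9.21, 8.64 and 11.3 RPKM in controls and 7.15, 7.05 and 7.33 after KD, a fall to 73.9% of the control mean with no overlap (log2 change -0.42, 95% CI -0.66 to -0.17, adjusted p = 0.0154). That call was lost without shCXCR7 replicate 1 (adjusted p = 0.0507) or replicate 2 (adjusted p = 0.0527). CCND2, the cyclin D2 gene, was close to silent in both lines, with 0 to 3 reads in 11 libraries. Its 64 reads in LNCaP-EnzR shCXCR7 replicate 3, or 0.558 rescaled RPKM, came from the library with background over silent genes, and CCND2 was not tested.

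Because CCND1 fell further than CCND3, the make-up of the D cyclin pool shifted. CCND1 supplied 80.4%, 81.8% and 82.2% of the summed D cyclin RPKM in LNCaP-EnzR controls and 63.7%, 59.6% and 60.6% after KD. In C4-2B-EnzR its share was 91.9%, 92.5% and 90.2% in controls and 79.9%, 79.2% and 80.0% after KD. The share from CCND3 moved the other way, from a mean of 18.5% ± 0.92 to 38.2% ± 2.04 (SD, n = 3) in LNCaP-EnzR and from 8.45% ± 1.204 to 20.2% ± 0.42 in C4-2B-EnzR. The control and KD shares did not overlap in either line. The size of a share depends on the gene length that RPKM divides by, recovered here from the RPKM steps. For CCND3 that length was 3161 bases, against 2026 in its canonical transcript, and for CCND1 4289 against 4238. With 3 libraries against 3, a 2-sided exact permutation test cannot go below p = 0.1, the value it gave for each of these differences (adjusted p = 0.175 over 14 comparisons of shares and ratios).

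Both E cyclins fell. CCNE1 (cyclin E1, chromosome 19, 29811991 to 29824312, plus strand) read 7.38, 7.88 and 8.15 RPKM in LNCaP-EnzR controls and 3.36, 3.52 and 3.94 after KD, a log2 change of -1.07 (95% CI -1.26 to -0.87, adjusted p = 1.55e-05). In C4-2B-EnzR it read 7.71, 9.21 and 7.88 RPKM in controls and 5.62, 5.03 and 4.94 after KD, a log2 change of -0.64 (-0.87 to -0.42, adjusted p = 0.00162). The groups did not overlap in either line, and 46.2% of the control mean remained in LNCaP-EnzR against 62.9% in C4-2B-EnzR.

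CCNE2, the gene for cyclin E2, had the second largest fall of the members in each line. It read 4.58, 4.83 and 5.34 RPKM in LNCaP-EnzR controls and 2.08, 1.65 and 1.96 after KD (log2 change -1.27, 95% CI -1.53 to -1.01, adjusted p = 2.70e-05). In C4-2B-EnzR it read 9.16, 10.97 and 13.2 RPKM in controls and 3.42, 3.59 and 3.22 after KD (log2 change -1.62, -1.92 to -1.32, adjusted p = 8.75e-05). Each KD library was below each control library of its line. CCNE1 made up 45.7%, 45.7% and 37.4% of the summed E cyclin RPKM in C4-2B-EnzR controls and 62.2%, 58.3% and 60.5% after KD, whereas in LNCaP-EnzR its share was 61.4% ± 0.85 in controls and 65.5% ± 3.37 after KD (SD, n = 3), with overlap. The exact permutation test gave p = 0.1 and p = 0.3 for these shares, where 0.1 is the smallest it can give.

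CDK2, the kinase partner of the E cyclins, fell together with them. In LNCaP-EnzR it read 9.62, 8.63 and 9.19 RPKM in controls and 4.998, 4.26 and 4.35 after KD, a log2 change of -0.98 (95% CI -1.17 to -0.78, adjusted p = 2.48e-05). In C4-2B-EnzR it read 20.9, 26.1 and 31.2 RPKM in controls and 9.12, 9.58 and 8.98 after KD, a log2 change of -1.46 (-1.77 to -1.15, adjusted p = 0.000161). The KD libraries of C4-2B-EnzR lay close together, and its controls were more spread without reaching them. The mean left after KD was 49.6% (LNCaP-EnzR) and 35.4% (C4-2B-EnzR) of the control.

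CDK4, a kinase partner of the D cyclins and far more abundant here as RNA than CDK6, did not follow CCND1. It read 38.5, 44.4 and 41.8 RPKM in LNCaP-EnzR controls and 55.0, 58.6 and 48.5 after KD, so each KD library was above each control (log2 change 0.37, 95% CI 0.17 to 0.58, adjusted p = 0.00929). In C4-2B-EnzR it read 46.0, 46.6 and 55.6 RPKM in controls and 48.6, 54.5 and 48.0 after KD, with overlap (log2 change 0.03, 95% CI -0.19 to 0.25, adjusted p = 0.813). On the deposited values without rescaling, the LNCaP-EnzR change was 0.03 (adjusted p = 0.984), with the median of all genes at -0.31. CDK6, the other D cyclin kinase, gave 3 to 43 reads in 11 libraries and at most 0.353% of the summed CDK4 and CDK6 RPKM in C4-2B-EnzR. In LNCaP-EnzR its share was 0.231% to 0.333% in controls and 0.470%, 0.383% and 1.64% after KD, the last in the library with background (167 reads), and CDK6 was not tested.

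RefSeq promoter sequences (GRCh38.p14, 250 bases before to 50 after the start site) were at hand for 6 of the 10 members, CCND3, CCNE1, CDK4, CDK6, CDKN1B and CDKN2C. The pair below is shown because CDK4 and CCNE1 moved in opposite directions in LNCaP-EnzR. CDK4 has its window at chr12:57752261-57752560 on the minus strand and CCNE1 at chr19:29811741-29812040 on the plus strand, and capitals mark the word CACGTG, the E-box that MYC and related factors bind, which reads the same on both strands.
CDK4: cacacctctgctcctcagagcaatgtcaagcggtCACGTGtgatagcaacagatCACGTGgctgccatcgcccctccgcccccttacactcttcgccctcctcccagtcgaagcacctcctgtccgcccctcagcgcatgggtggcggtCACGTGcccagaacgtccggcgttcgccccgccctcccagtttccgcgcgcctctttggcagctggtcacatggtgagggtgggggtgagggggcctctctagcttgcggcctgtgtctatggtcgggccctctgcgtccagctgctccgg
CCNE1: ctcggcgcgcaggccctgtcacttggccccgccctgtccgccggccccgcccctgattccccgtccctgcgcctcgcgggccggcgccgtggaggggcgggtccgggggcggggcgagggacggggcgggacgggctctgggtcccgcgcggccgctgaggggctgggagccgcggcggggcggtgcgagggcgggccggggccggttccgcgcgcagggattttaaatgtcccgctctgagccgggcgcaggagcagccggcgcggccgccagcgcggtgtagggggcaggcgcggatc
The CDK4 window held CACGTG at 3 positions, first bases at -216, -196 and -101 from the start site, and the CCNE1 window held none. Single copies stood in the windows of CDK6 and CDKN2C, so 3 of the 6 members had the word, against 7.43% of 27305 promoters. The E2F words TTTCGCGC, TTTGGCGC, TTTCCCGC and TTTGCCGC (3.33% of promoters on either strand), the AP-1 words TGACTCA and TGAGTCA (4.92%) and the CHR word TTTGAA (15.4%) were in 0 of the 6 windows. None of these words overlaps CACGTG, and a match or its absence describes the letters of this window alone.

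Neither inhibitor passed the test in either line. CDKN1B read 19.7, 19.9 and 19.1 RPKM in LNCaP-EnzR controls and 21.0, 19.1 and 17.3 after KD (log2 change -0.04, 95% CI -0.22 to 0.14, adjusted p = 0.750). In C4-2B-EnzR it read 27.3, 30.1 and 34.3 RPKM in controls and 25.1, 27.9 and 27.2 after KD (log2 change -0.19, -0.41 to 0.03, adjusted p = 0.146). The groups overlapped in both lines, and the intervals leave room for a fall of up to 0.22 and 0.41 on the log2 scale.

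CDKN2C read 5.23, 4.52 and 5.09 RPKM in LNCaP-EnzR controls and 4.24, 4.70 and 5.80 after KD (log2 change -0.02, 95% CI -0.28 to 0.25, adjusted p = 0.925). In C4-2B-EnzR its controls were spread widely at 4.56, 7.03 and 8.36 RPKM and its KD libraries read 4.90, 4.69 and 3.21, so that the lowest control fell within the KD range (log2 change -0.59, -1.13 to -0.06, adjusted p = 0.0734). Without that control, LKO replicate 1, the change in CDKN2C was -0.84 (adjusted p = 0.00933) and that in CDKN1B -0.27 (adjusted p = 0.0304). In C4-2B-EnzR, 7 of the 8 members then fell, against 2967 of 13152 genes, where 2844 of 13347 genes fell with all libraries. The log2 ratio of CDKN2C to summed CDK4 and CDK6 was -2.93 ± 0.35 in C4-2B-EnzR controls and -3.59 ± 0.30 after KD (SD, n = 3), with overlap (exact permutation p = 0.2), and in LNCaP-EnzR it was -3.08 ± 0.21 and -3.48 ± 0.34 (exact permutation p = 0.2). The level of this ratio depends on the length RPKM divides by, which for CDKN2C was 2478 bases against 995 in its canonical transcript.

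**Figure D2:**
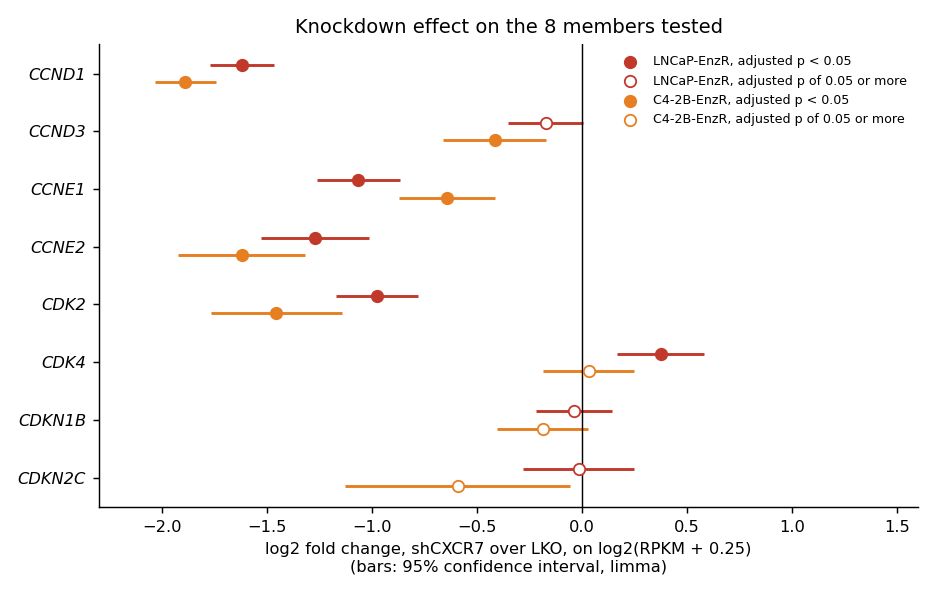
Log2 fold change of shCXCR7 over LKO (horizontal axis, with 95% confidence intervals from limma) for the 8 members tested (vertical axis) in LNCaP-EnzR and C4-2B-EnzR. Filled points passed the adjusted threshold, and CCND1, CCNE1, CCNE2 and CDK2 are filled on the lower side in both lines.

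The ratio of cyclin D1 to p27 transcripts was lower after KD in both lines. The log2 ratio of CCND1 to CDKN1B, taken within a library and so free of any scaling, was 1.76, 1.74 and 1.88 in LNCaP-EnzR controls and 0.10, 0.21 and 0.30 after KD. In C4-2B-EnzR it was 1.94, 1.83 and 1.603 in controls and 0.18, -0.05 and 0.11 after KD. After KD the 2 transcripts were therefore at nearly the same level per length, a difference between the groups of -1.59 and -1.71 on the log2 scale with no overlap (exact permutation p = 0.1 in each line, the smallest possible).

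**Figure D3:**
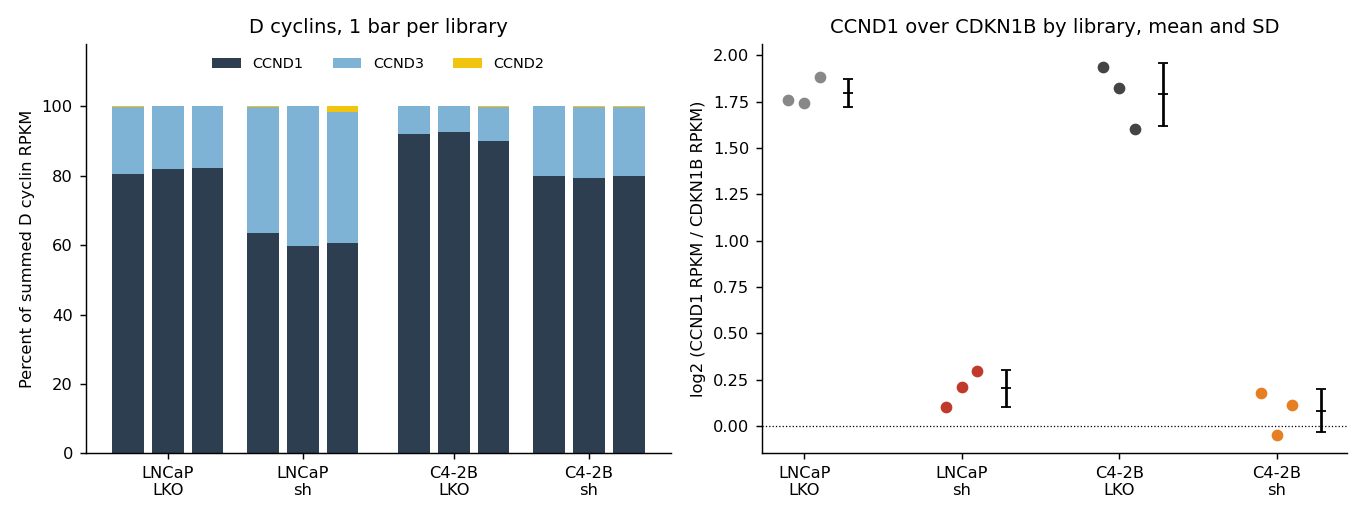
Left, the percent of summed D cyclin RPKM (vertical axis) from CCND1, CCND3 and CCND2 in each of the 12 libraries, and right, the log2 ratio of CCND1 to CDKN1B RPKM (vertical axis) by group with mean and SD of 3 libraries. CCND1 supplies 90.2% to 92.5% in C4-2B-EnzR controls and 79.2% to 80.0% after KD, and the ratio drops from above 1.6 to at most 0.30 in both lines.

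The order of the members by level differed between control and KD. Places in this order depend on the length RPKM divides by. That length was well above the canonical transcript for CDKN2C (2478 against 995 bases) and CCND3 (3161 against 2026). On values rescaled over the 12 libraries together, CCND1 led both controls with 74.9 ± 2.37 RPKM for LNCaP-EnzR and 95 ± 1.63 for C4-2B-EnzR (SD, n = 3), and CDK4 came next with 45.9 ± 3.29 and 44.6 ± 4.69. After KD this order was turned, with CDK4 at 59.3 ± 6.33 and 45.9 ± 3.21 RPKM and CCND1 at 24.1 ± 1.01 and 25.8 ± 1.17. CCND1 then overlapped in range with CDKN1B, at 21.0 ± 2.27 and 24.4 ± 1.29 RPKM, from which it had been well apart in the controls. Among the lower members, the ranges of CDKN2C and CCNE2 overlapped in LNCaP-EnzR controls (5.45 ± 0.42 and 5.43 ± 0.44 RPKM), and those of neighbours from CCNE2 through CCND3 and CCNE1 to CDKN2C overlapped in C4-2B-EnzR controls (from 10.0 ± 1.78 to 5.996 ± 1.73).

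The 2 controls differed in several members before any KD, which shows where each line started. C4-2B-EnzR controls had more CDK2 than LNCaP-EnzR controls (23.5 ± 4.57 against 10.1 ± 0.55 RPKM, log2 difference 1.18), more CCNE2 (10.0 ± 1.78 against 5.43 ± 0.44, log2 difference 0.84), more CCND1 (log2 difference 0.34) and more CDKN1B (0.34), and less CCND3 (8.76 ± 1.23 against 17.0 ± 0.82, log2 difference -0.95). That is 4 of 8 members higher against 33% of 13286 genes and 1 lower against 32%, with adjusted p between 0.000117 and 0.00872 (limma). CCNE1, CDK4 and CDKN2C did not pass (log2 differences -0.20, -0.04 and 0.09). Without C4-2B-EnzR LKO replicate 1, CDKN2C was higher there by 0.33 (adjusted p = 0.0257), and without LKO replicate 2 CCNE1 was lower (-0.28, adjusted p = 0.0296). The lines differ in enzalutamide dose and in the P number of their titles as well as in origin, and these cannot be told apart.

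The size of the KD effect differed between the lines by a narrow margin for 2 members. The fall of CCND1 was 0.27 deeper on the log2 scale in C4-2B-EnzR (95% CI of the difference -0.45 to -0.09, adjusted p = 0.0463) and that of CCNE1 was 0.42 shallower (0.14 to 0.70, adjusted p = 0.0472), so 1 of the 8 members was lower against 7% of 12482 genes and 1 higher against 6.94% (limma interaction). For CCNE2 (-0.35, adjusted p = 0.207), CDK2 (-0.48, adjusted p = 0.0737), CDK4 (-0.34, adjusted p = 0.112) and CDKN2C (-0.58, adjusted p = 0.198) the difference did not pass. With the reads recovered from the table and limma-voom, neither CCND1 nor CCNE1 passed (adjusted p = 0.0824 and 0.0878). On deposited values the difference for CCND1 turned to 0.11 (adjusted p = 0.936).

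Some genes had profiles over the 12 libraries close to those of the 3 most variable members. After centring each gene, the root mean square difference from CCND1 on the log2 scale was 0.104 for MED1, a Mediator subunit, 0.132 for ADGRG6, an adhesion G protein-coupled receptor, and 0.175 for KIF3B, a kinesin motor, against a median of 0.949 over 12481 genes. The nearest genes to CCNE2 were SLC25A24 (0.138), CDV3 (0.184) and CDK2 itself (0.196), with a median of 0.878. Those nearest to CDK2 were GTF3A (0.137), a transcription factor of the 5S ribosomal RNA genes, MEX3C (0.152) and SPAG5 (0.194), a spindle protein, with CCNE2 next among all genes (0.196) and a median of 0.852. The 12 libraries share lines and vectors, so these are descriptions of likeness.

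Downstream of the members, genes that E2F drives at the G1/S step fell, in C4-2B-EnzR above all. Here and for the lists that follow, the shares to set beside the counts are those of all tested genes, 19.4% higher and 21.3% lower in LNCaP-EnzR and 21.2% higher and 21.3% lower in C4-2B-EnzR. In LNCaP-EnzR, 7 of 18 such genes were lower and 0 higher, with a median log2 change of -0.14 (8 lower and 1 higher without shCXCR7 replicate 3). In C4-2B-EnzR, 14 of 18 were lower and 0 higher, with a median of -1.31. MCM7 and MCM3, subunits of the replicative helicase, changed by -0.84 ± 0.07 and -0.53 ± 0.08 (SE) on the log2 scale in LNCaP-EnzR and by -1.93 ± 0.10 and -1.49 ± 0.12 in C4-2B-EnzR. TYMS, which makes thymidylate, changed by -0.95 ± 0.14 and -2.09 ± 0.11. RRM2 of ribonucleotide reductase changed by -0.49 ± 0.10 and -2.24 ± 0.24, and the replication licensing gene CDC6 by -0.42 ± 0.10 and -1.94 ± 0.17. The difference between the lines itself passed for 12 of the 18, lower in C4-2B-EnzR in each, against 7% of 12482 genes (limma interaction). This count was made with the main settings only. ACKR3 also fell further in C4-2B-EnzR, to 25.4% of the control mean against 42.4% in LNCaP-EnzR, and the part of this was not tested. Per library, the median of the list over the control mean was -0.32, 0.02 and 0.25 in C4-2B-EnzR LKO replicates 1, 2 and 3, the order in which CDK2, CCNE2, CDKN1B and CDKN2C stood in those controls, and between -1.45 and -1.13 after KD. The part of this spread among controls in the members' changes was not tested. Without LKO replicate 1, 16 of 18 were lower.

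Among the cyclins and kinases of S phase and mitosis, 1 of 5 tested genes was lower in LNCaP-EnzR, a share near that of all genes, and 5 of 5 were lower in C4-2B-EnzR, with 0 higher in either. Without LNCaP-EnzR shCXCR7 replicate 1, 2 of 5 were lower there. CDK1, the mitotic kinase, changed by -0.51 ± 0.10 and -1.08 ± 0.18 (SE) on the log2 scale. In C4-2B-EnzR, CCNA2 (cyclin A2) changed by -1.77 ± 0.21, CCNB1 (cyclin B1) by -1.03 ± 0.19 and CCNF by -0.75 ± 0.09, where their LNCaP-EnzR values were -0.30, -0.03 and -0.13 and did not pass. The difference between the lines passed for 4 of the 5, lower in C4-2B-EnzR in each, against 7% of 12482 genes (limma interaction). This count too was made with the main settings only.

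**Figure D4:**
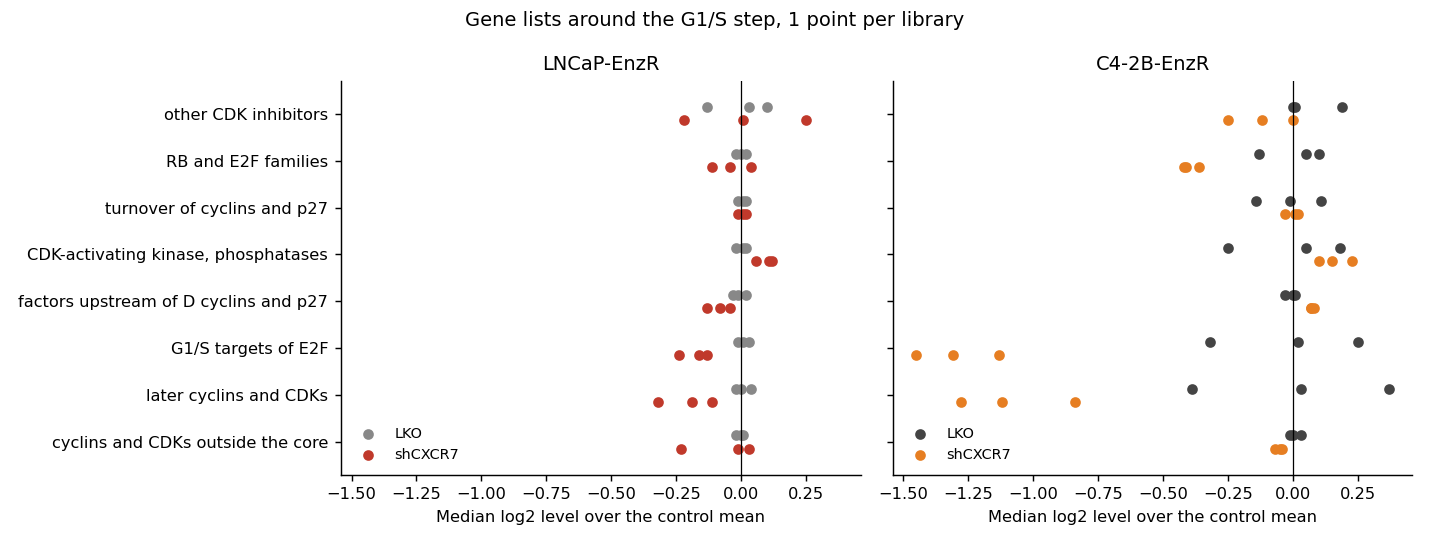
Median log2 level of each gene list over the control mean of its line (horizontal axis, log2 units), 1 point per library, for LKO and shCXCR7 in LNCaP-EnzR (left) and C4-2B-EnzR (right). The G1/S targets sit between -1.45 and -1.13 after KD in C4-2B-EnzR and between -0.24 and -0.13 in LNCaP-EnzR.

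In the RB and E2F families, through which the members act, 2 of 12 tested genes were lower and 1 higher in LNCaP-EnzR, and 8 of 13 were lower and 1 higher in C4-2B-EnzR. Of these, the C4-2B-EnzR share of lower genes stood above that of all genes. Without LNCaP-EnzR shCXCR7 replicate 3, 3 of 12 were lower and 3 higher there. The higher call in C4-2B-EnzR was lost (0 of 13) when any library but LKO replicate 1 was left out, and the lower count was then 6 to 7. TFDP1, the partner that E2F proteins need to bind DNA, fell in both lines by 0.45 and 0.78 on the log2 scale, from 17.2 ± 0.23 to 12.5 ± 0.56 RPKM and from 20.2 ± 1.79 to 11.6 ± 0.89 (SD, n = 3). The activator E2F3 also fell in both (-0.49 and -0.40). TFDP2 rose in LNCaP-EnzR (0.43) and read 0.11 in C4-2B-EnzR without passing. In C4-2B-EnzR, E2F1 changed by -0.87, E2F2 by -1.11 and the repressor E2F7 by -1.69, whereas in LNCaP-EnzR E2F1 read -0.28 and E2F2 -0.29 without passing and E2F7 was not tested. RB1 itself read -0.14 and -0.11 (adjusted p = 0.275 and 0.406, limma).

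Of 6 other CDK inhibitors, 2 were lower and 0 higher in LNCaP-EnzR, and 3 were lower and 2 higher in C4-2B-EnzR, in a list too short to set firmly beside the shares of all genes. The higher count was 1 in LNCaP-EnzR without shCXCR7 replicate 1, and 1 in C4-2B-EnzR without LKO replicate 2 or shCXCR7 replicate 1. The lower count was 1 in LNCaP-EnzR with robust variances or on deposited values. In C4-2B-EnzR it was 2 without LKO replicate 2 or shCXCR7 replicate 3. CDKN1A, which encodes p21 and was far more abundant than CDKN1B, fell in both lines, from 284.8 ± 39.2 to 135.3 ± 20.7 RPKM and from 129.3 ± 21.7 to 81.3 ± 8.69 (SD, n = 3, log2 changes -1.07 and -0.66). CDKN2D, the gene of p19, also fell in both (-1.09 and -0.54). Its LNCaP-EnzR values were widely spread after KD, from 4.94 ± 0.52 to 2.37 ± 1.285 RPKM (SD, n = 3, adjusted p = 0.00952, limma). CDKN3, a phosphatase that acts on CDK2 and is itself cell cycle regulated, fell in C4-2B-EnzR (-0.84) and read -0.17 in LNCaP-EnzR (adjusted p = 0.466, limma). CDKN2B, the gene of p15, rose in C4-2B-EnzR from 0.602 ± 0.19 to 2.11 ± 0.36 RPKM (SD, n = 3, log2 change 1.48, adjusted p = 0.00121, limma) and read 0.68 in LNCaP-EnzR (adjusted p = 0.0723).

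Of 14 genes for the turnover of cyclins and p27, 1 was higher and 1 lower in LNCaP-EnzR and 1 higher and 3 lower in C4-2B-EnzR, where the 3 lower were near the share of all genes. These counts turned on single libraries (4 higher without LNCaP-EnzR shCXCR7 replicate 3, 4 higher without C4-2B-EnzR LKO replicate 3, 1 lower without C4-2B-EnzR LKO replicate 2). SKP2, the F-box protein that marks p27 for degradation, rose in LNCaP-EnzR from 4.15 ± 0.53 to 7.04 ± 0.37 RPKM (SD, n = 3, log2 change 0.73, adjusted p = 0.000316, limma) and read -0.08 in C4-2B-EnzR (adjusted p = 0.718). RNF123, another p27 ubiquitin ligase, fell in both (-0.27 and -0.36). In C4-2B-EnzR, CKS2, a small CDK-binding protein, changed by -0.77, USP28 by -0.35 and SKP1, the SKP2 adaptor, by 0.40, and their LNCaP-EnzR values of -0.21, -0.09 and 0.05 did not pass. Of 5 genes for the CDK-activating kinase and G1 phosphatases, 1 was higher and 1 lower in each line, again near the shares of all genes (2 lower without C4-2B-EnzR shCXCR7 replicate 1). CDK7, which activates CDK2 and CDK4, rose in both, from 5.21 ± 0.12 to 8.38 ± 1.06 and from 4.11 ± 0.19 to 7.78 ± 0.43 RPKM (log2 changes 0.66 and 0.88). Its partner CCNH fell in LNCaP-EnzR (-0.39) and read -0.22 in C4-2B-EnzR (adjusted p = 0.0744, limma). The phosphatase CDC25A, which activates CDK2, fell in C4-2B-EnzR (-1.07) and read 0.19 in LNCaP-EnzR (adjusted p = 0.452).

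Upstream of the D cyclins and p27, 2 of 11 tested factors and kinases were higher and 3 lower in each line, near the shares of all genes, and 4 were higher in LNCaP-EnzR without shCXCR7 replicate 3. MYC fell in both lines, from 75.8 ± 4.12 to 46.5 ± 6.23 RPKM and from 60.6 ± 3.74 to 41.8 ± 1.74 (SD, n = 3, log2 changes -0.71 and -0.53). JUN, an AP-1 subunit known to act on CCND1, rose in both (0.55 and 1.23). AKT1, the kinase that phosphorylates p27 and stabilises cyclin D1, rose (0.52 and 0.37), and MTOR fell (-0.40 and -0.83).

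Exons of CCND1, CCND2, CCND3, CCNE2, CDK2, CDK4, CDK6 and CDKN2C overlap those of genes on the opposite strand in GENCODE 44, among them LTO1 at CCND1, CCND2-AS1 at CCND2, CDK6-AS1 at CDK6, INTS8 at CCNE2, PMEL at CDK2 and TSPAN31 at CDK4. Exons of CCND2 also overlap those of a gene on its own strand, which counting by strand would not separate. Whether the reads were counted by strand is not given in the sources used here, so reads of the partners cannot be separated from those of the members. CCNE1, CDKN1B and ACKR3 have no such overlap.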

How the data were processed

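Per the labels and the study's methods, RNA libraries (NEBNext Ultra, single-end, HiSeq 4000) were aligned by the authors with STAR to hg38 and counted, and the authors deposited RPKM per gene. The sources used here do not give the annotation or the strand setting. Of 26475 lines, 32 without a value were left out, and among 4 lines that share a symbol the first of each symbol was kept, which left 26441 genes. Library denominators and whole reads were recovered for 25029 of 25030 genes (tolerance 0.02 reads) and the denominators ran from 9528739 to 35667712 reads. RPKM was rescaled by median-of-ratios factors over genes above 0 in every library with at least 0.5 RPKM in at least 3. The main test was limma 3.58.1 (R 4.3.3) with a variance trend on log2(RPKM + 0.25), within each line, with Benjamini-Hochberg adjustment over all genes tested and a threshold of 0.05, since RPKM does not suit the count test of the study. Fold changes on this scale understate changes of low genes. An interaction term over 12 libraries compared the lines, with SE from the fit. Shares and ratios had 2-sided exact permutation tests. The members and gene lists were chosen with earlier results of these data known. Named list genes are up to 4 per list and line with the largest t among those called, RB1 and, where tested, the other line's value of a named gene being added. Alternatives covered scaling, pseudocount, filter, variance model, replicate block and each library left out, and factors over genes of at least 5 RPKM or over all genes above 0 were chosen after seeing the data. The within-line fit alone was run on simulated data with known changes, built from C4-2B-EnzR controls. No library with a broad background was simulated.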

Additional observations from a re-analysis of the deposited data

Results flagged for a closer look

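For 3 genes the KD effect itself differed between the lines (limma interaction on 12 libraries, C4-2B-EnzR minus LNCaP-EnzR). For ACKR3, the KD target, the difference was -0.73 on the log2 scale (adjusted p = 0.00573), where LNCaP-EnzR had -1.24 and C4-2B-EnzR -1.97. For CCND1 it was -0.27 (adjusted p = 0.0463), from -1.62 and -1.89. For CCNE1 it was 0.42 (adjusted p = 0.0472), from -1.07 and -0.64, so the smaller fall of CCNE1 stood in the line with the deeper KD. With 3 libraries per group, no single library was tested as an outlier.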

How the results depend on the processing

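Of 164 alternative values for CCND1, CCNE1, CCNE2 and CDK2 under KD in either line, 163 kept direction and call, the exception being CDK2 in LNCaP-EnzR on deposited values (-1.30, adjusted p = 0.0781). On those values, where the median of all LNCaP-EnzR changes was -0.31, 0 members rose and ACKR3 read -1.58 (adjusted p = 0.112). The count of members whose response differs between the lines, 1 lower and 1 higher, was the least stable. The lower count was 0 on deposited values, with 12-library factors, without the filter, without the trend, with robust variances, with voom and with factors over all genes above 0, 2 with quantile normalization, a pseudocount of 1 or the background subtracted, and 3 with factors over genes of at least 5 RPKM. The higher count was 0 on deposited values, with a pseudocount of 1, without the filter, without the trend, with voom and with factors over genes of at least 5 RPKM. Leaving out each library gave 0 to 3 lower and 0 to 1 higher. The CCND1 difference reversed to 0.11 on deposited values. In the controls the lower count was 2 with quantile normalization and 1 to 2 with a library left out, CCNE1 being added (-0.28), and the higher count was 5 without C4-2B-EnzR LKO replicate 1, CDKN2C being added (0.33, adjusted p = 0.0257). The CCND2 share difference in C4-2B-EnzR was 0.503 points with 0.25 RPKM added to each gene. CDKN2C in C4-2B-EnzR passed with voom (adjusted p = 0.0253) and with 12 libraries in 1 fit (adjusted p = 0.0287). Same-numbered libraries did not deviate together (r from -0.11 to 0.06). The labels do not say whether the numbers pair libraries, and correlations of deviations from means of 3 cannot decide it. With a replicate block the interaction counts were 0 and 0, the CCND1 difference being -0.27 (adjusted p = 0.14), and no member's call within a line changed. Depth limits CCND2 and CDK6, and the background of LNCaP-EnzR shCXCR7 replicate 3 sets their values there. Of the lists, voom called 16 of 18 G1/S targets lower in C4-2B-EnzR, and in LNCaP-EnzR 0 of 18 were lower on deposited values and 4 with 12 libraries in 1 fit. Voom called 2799 genes higher and 2896 lower in LNCaP-EnzR and 3021 and 3068 in C4-2B-EnzR.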

Other observations

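Cyclins and CDKs outside the cell cycle core, which act in transcription, splicing or other processes, were called about as often as all tested genes, apart from the lower calls in LNCaP-EnzR. Of 21 tested in LNCaP-EnzR, 4 were higher and 7 lower, and of 22 in C4-2B-EnzR, 4 were higher and 4 lower (limma, adjusted p under 0.05), against 19.4% higher and 21.3% lower of all genes tested in LNCaP-EnzR and 21.2% and 21.3% in C4-2B-EnzR. Without LKO replicate 2 or 3 the LNCaP-EnzR counts were 2 higher and 4 lower, and without shCXCR7 replicate 1 or 2 the lower count in C4-2B-EnzR was 2. CCNG2, a cyclin G that is high in resting cells, fell in LNCaP-EnzR from 41.3 ± 0.54 to 20.2 ± 2.45 RPKM (SD, n = 3, log2 change -1.03) and also in C4-2B-EnzR (-0.26). The Mediator kinase CDK8 fell in both lines (-0.52 and -0.26), and its cyclin partner CCNC rose in both (0.33 and 0.51). CDK12, a transcriptional kinase, rose in LNCaP-EnzR (0.28) and fell in C4-2B-EnzR (-0.37). CCNL2 and CDK11A, which act in splicing, fell in LNCaP-EnzR (-0.71 and -0.50), and their C4-2B-EnzR values of -0.20 and -0.35 did not pass. CDK16 rose in C4-2B-EnzR (0.38) and read 0.23 in LNCaP-EnzR without passing, and CDK18 fell in C4-2B-EnzR (-0.84) and was not tested in LNCaP-EnzR. CDK11A has a near-identical copy, so its reads may be split between the copies.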
